A study of Rattus norvegicus with 6 samples.

Results

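ROSEA25 cells given siRNA against HMGA2 were compared with untreated ROSE199 cells on 2 spotted 2-colour arrays, out of 6 in the series. ROSE199 is a line derived from rat ovarian surface epithelium. ROSEA25 was taken as its RAS-transformed derivative, since the treatment protocol speaks of ROSE-RAS cells. The ROSEA25 cells received 0.2 µM siRNA duplex with Oligofectamine in 2 doses given 24 h apart and were taken 48 h after the first, in medium with 10% serum. The ROSE199 cells had neither siRNA nor transfection reagent, so the RAS oncogene, the derivation of the line, the transfection and the depletion of HMGA2 cannot be told apart in this comparison. Both arrays were chosen by their labels. Array 1 carried the ROSEA25 sample in Cy5 and array 2 carried it in Cy3, with ROSE199 in the other dye. The labels name no separate cultures, so the arrays were counted as labellings of 1 RNA sample on each side and no p-value is given. Values of the other arrays of the series are set beside these in places. The siEGFP array held ROSEA25 cells given a control siRNA at the same dose and times. The remaining arrays held ROSE199 cells carrying an HMGA2 plasmid or the empty vector, in medium with 10 µg/ml blasticidin.

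RAS proteins are membrane switches that pass growth factor signals to the RAF, MEK and ERK kinases, and through them to transcription factors such as AP-1 and ETS proteins. Cells carrying an activated RAS gene typically switch on growth factor ligands, proteases and feedback inhibitors of the pathway, and lose contractile, matrix and epithelial genes. HMGA2 is an architectural chromatin protein that binds AT-rich DNA, is abundant in embryonic tissue and is made again in many tumours.

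Each array holds 311 features with a gene or clone name, most of them spotted 4 or 5 times, and 18 of the 311 are unnamed clones. Values are log2 ratios of ROSEA25 with HMGA2 siRNA over ROSE199, with array 2 turned to the same direction. After turning, the arrays correlated at 0.886 over the 311 features (rank correlation 0.727), and the median gap between them was 0.27. The median spot SD within a feature was 0.08 on array 1 and 0.13 on array 2. In the ROSE199 channel 35 features were not above the blank spots on array 2 against 1 on array 1. The corresponding counts in the ROSEA25 channel were 3 and 1. Uncalled features named below with ROSE199 not above blank on array 2 include Ets-2, ER81, Sap1, GelatinaseA, PAI1, FGF-2, Cav2, PS-PLA1, Thy-1, MyoD, MRF4 and Rhoc. Differences between the 2 array values given below were taken as between labellings and cover neither cultures nor animals.

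A feature was called when the mean of both arrays was at least 1 in size, a 2-fold difference, with the same sign on each. By this rule 59 of 311 features were called (19%), 27 of them higher (8.68%) and 32 lower (10.3%) in HMGA2-depleted ROSEA25 than in ROSE199. In 46 of the 59 each array was past 1 by itself (14.8% of all features). Past a 4-fold difference stood 10 higher and 16 lower features, and past an 8-fold difference 6 and 2. The other 252 features had means between -1 and 1, and 209 of the 311 lay within 0.5 of 0. The median of all features was -0.03, with quartiles at -0.27 and 0.29.

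**Figure D1:**
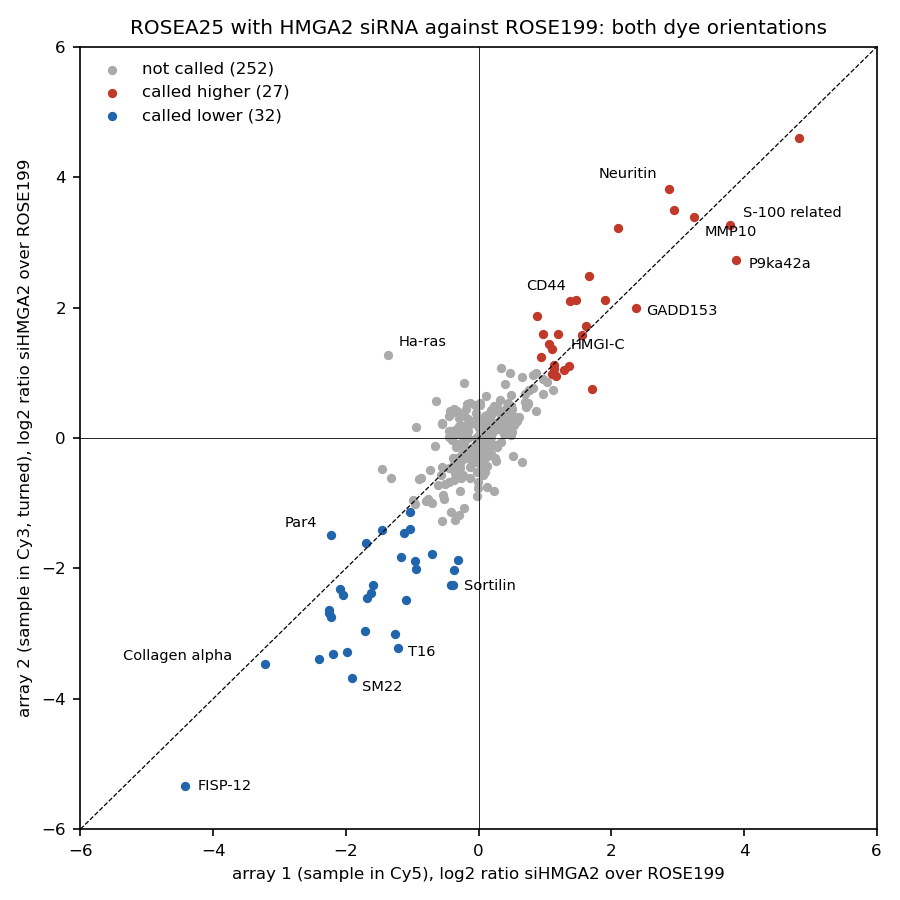
Log2 ratio of ROSEA25 with HMGA2 siRNA over ROSE199 on array 1 (x axis, sample in Cy5) and array 2 (y axis, sample in Cy3, turned), 1 point per feature, 311 in all; the dashed line marks equal values. The 27 features called higher and 32 called lower lie at the upper right and lower left, many of the lower ones below the line, with FISP-12 at -4.42 and -5.34 farthest out on the lower side, while Ha-ras lies far off it at -1.36 and 1.28.

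HMGA2, spotted under its older name HMGI-C, was examined first. HMGI-C was higher in the depleted cells than in ROSE199. Its ratios were 1.20 and 1.59 (mean 1.40, 2.63-fold), against 2.40 on the siEGFP array. Its net signal in ROSE199 was low, 177 and 173 on the arrays, and 238 and 820 in ROSEA25. The mean was 0.89 in the ratios the authors deposited and 0.87 without background correction, each under the limit. In ROSE199 carrying an HMGA2 plasmid the same feature read 3.70 and 3.33, and with the empty vector 0.26.

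Of the RAS genes, Nras-rat was at -0.01 and -0.36, with no call, and Ha-ras gave no usable direction. Ha-ras read -1.36 with the sample in Cy5 and 1.28 with the sample in Cy3, the widest gap of all features. The pair of arrays on ROSE199 cells carrying HMGA2 gave almost the same readings, -1.34 in Cy5 and 1.25 in Cy3. The other Cy5 arrays read 0.07 (siEGFP) and -0.47 (empty vector).

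Among the 25 features of RAS-MAPK signalling, 6 were called higher and 1 lower (28%, against 19% of all features), with a median of 0.17 against -0.03 over all features. The ligands and receptors came first. TGF alpha, a ligand of the EGF receptor, was at 0.88 and 1.87 (mean 1.38, 2.60-fold). HB-EFG, the array's name for another such ligand, was at -0.05 and 0.50, and the receptor itself (EGFR) at -0.23 and -0.32. CD44, a hyaluronan receptor that also presents growth factors, was at 1.48 and 2.11 (mean 1.79, 3.47-fold), although its deposited ratios were only 0.26 and 0.59.

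The feedback inhibitors of the pathway were higher in part. Sprouty2, which restrains receptor signalling to RAS, was at 1.29 and 1.05 (mean 1.17, or 0.93 without background correction). Cpg21, the dual-specificity phosphatase Dusp5 that acts on ERK, was at 1.72 and 0.75 (mean 1.23, or 0.84 without background correction), and ROSE199 was above blank for it on array 1 alone. Of the MAP kinase phosphatases, Mkp3 stood just under the limit at 1.13 and 0.74 (mean 0.93, but -0.06 in the deposited ratios), Mkp4 was at 0.49 and 0.50, Mkp2 at -0.04 and 0.38, and Mkp1 at -0.37 and -0.65. MAP kinase kinase 1, upstream of ERK, was also just under the limit at 0.97 and 0.90 (mean 0.93, but 0.30 in the deposited ratios).

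Of the nuclear targets, CyclinD1, which drives entry into the cell cycle, was at 1.56 and 1.58 (mean 1.57, 2.97-fold), values that differed by less than its spot SD on either array. TDAG51 was at 1.37 and 1.11 (mean 1.24, or 0.94 without background correction). The AP-1 members were not called: Fra-1 was at 0.34 and 1.08, JunB at 0.47 and 0.99, JUN at 0.44 and 0.47, Fra2 at -0.02 and -0.88 and JunD at -0.15 and -0.23. Egr-1 (0.15 and -0.26) and c-myc (-0.13 and -0.32) were close to ROSE199. Of 6 ETS features, TEL, a repressor of the ETS family, was lower at -0.94 and -2.01 (mean -1.47), while the means of Ets1, Ets-2, ER81, Elk1 and Sap1 lay between -0.16 and -0.01. ROSE199 was above blank for Ets-2, ER81 and Sap1 on array 1 alone.

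Of 8 protease features, 3 were called higher, against 8.68% of all features, and none lower (median 0.11). MMP10 and MMP-3, the stromelysins that degrade matrix proteins, had net signals of 3567 and 1735 in ROSEA25 against 453 and 548 in ROSE199 on array 1. On array 2 the signals were 4314 and 1496 against 349 and 243. The ratios were 3.25 and 3.39 for MMP10 (mean 3.32, 10.0-fold) and 1.90 and 2.13 for MMP-3 (mean 2.01, 4.04-fold), with little difference between the dye orientations. Cathepsin D, a lysosomal protease, was at 1.06 and 1.45 (mean 1.26), but at -0.51 and 0.08 in the deposited ratios. MMP1 (-0.37 and 0.44), GelatinaseA (-0.20 and 0.45), UPA (-0.54 and 0.23) and the plasminogen activator inhibitor PAI1 (0.04 and 0.16) were not called, and the metalloprotease inhibitor TIMP-2 was at -0.73 and -0.49.

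The promoters of the 2 stromelysin genes are shown because both features were higher and each promoter holds a match to the AP-1 motif, the element through which RAS signalling reaches many genes. The sequences are from RefSeq, build GRCr8, plus strand, 250 bases before to 50 after the annotated start, with matches to the AP-1 motif TGANTCA in capitals.
MMP10 (Mmp10), chr8:12974457-12974756: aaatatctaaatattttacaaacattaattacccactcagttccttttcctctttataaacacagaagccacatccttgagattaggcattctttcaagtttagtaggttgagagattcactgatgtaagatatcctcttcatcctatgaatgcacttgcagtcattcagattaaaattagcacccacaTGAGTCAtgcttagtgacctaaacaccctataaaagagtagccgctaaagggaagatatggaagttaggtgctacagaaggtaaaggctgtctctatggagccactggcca
MMP-3 (Mmp3), chr8:12925031-12925330: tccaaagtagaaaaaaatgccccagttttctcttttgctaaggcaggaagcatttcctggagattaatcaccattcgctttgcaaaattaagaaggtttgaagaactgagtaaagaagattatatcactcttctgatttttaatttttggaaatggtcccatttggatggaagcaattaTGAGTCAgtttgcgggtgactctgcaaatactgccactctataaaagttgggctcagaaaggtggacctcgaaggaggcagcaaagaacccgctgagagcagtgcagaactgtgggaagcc
The match starts 61 bases before the start in Mmp10 and 71 bases before it in Mmp3. The motif was searched on both strands. It was found in 2453 of the 33469 rat promoters of the same 300 bases (7.33%). Of 12 higher features whose promoters were searched, 3 held the motif, the third being GADD153 (Ddit3). Of 4 lower features searched none held it, and of 5 uncalled features 1 did, the chemokine Mob-1 (Cxcl10), which was at 0.48 and 0.66 on the arrays. The searched features were picked by role or with their values known, FAH among the latter, and were matched to RefSeq by symbol. They leave out most of the 27 higher and 32 lower features, so the counts are not shares of those groups. The CArG box, the element bound by serum response factor, was in none of the promoters of Cyr61, FISP-12 and TPM2 in this window. SM22 could not be searched, as the promoter set held no entry for its gene. The CArG box was in the promoter of 1 higher feature, Cpg21, and 1.64% of all promoters held it.

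**Figure D2:**
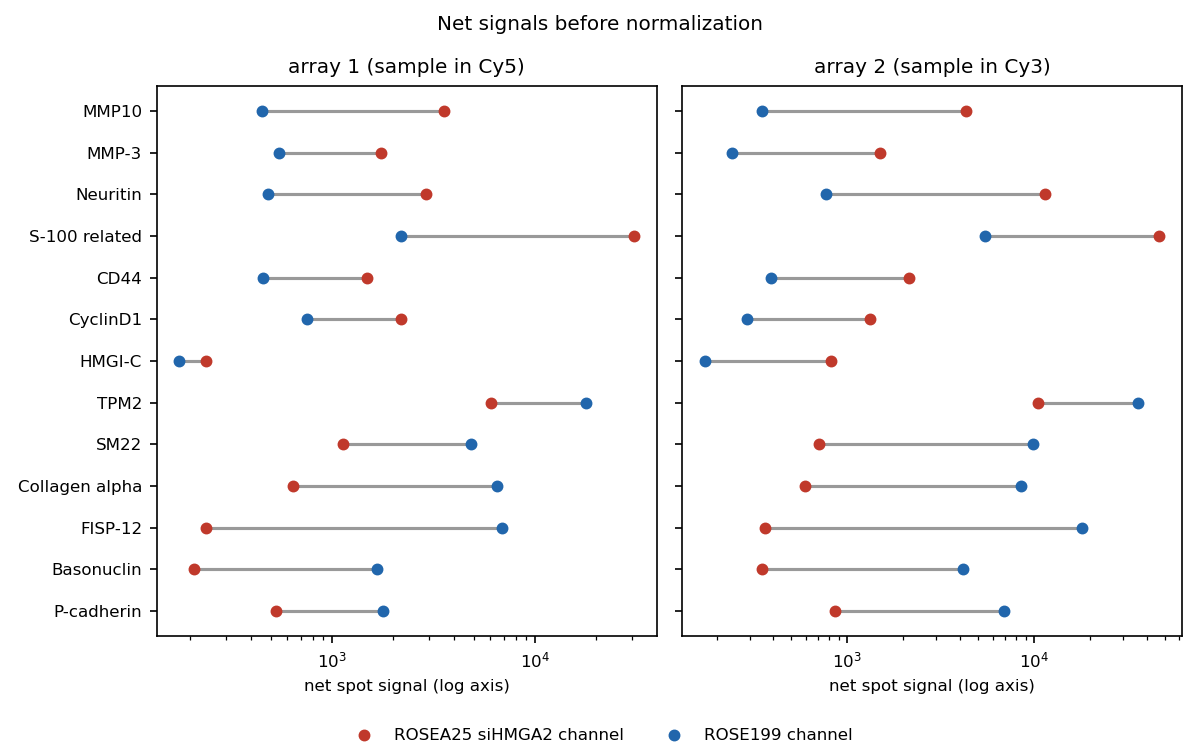
Net spot signal (signal minus local background, log axis) before normalization of 13 features in the ROSEA25 siHMGA2 channel (red) and the ROSE199 channel (blue), array 1 left and array 2 right. MMP10 and S-100 related are brighter in ROSEA25 on both arrays, and TPM2, SM22, Collagen alpha and FISP-12 brighter in ROSE199.

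Matrix features lay mostly below ROSE199. Of 9 of them, 3 were called lower, against 10.3% of all features, and 1 higher, and the median was -0.97. Collagen alpha, a structural chain of the matrix, had net signals of 638 in ROSEA25 against 6451 in ROSE199 on array 1 and of 592 against 8487 on array 2. Its ratios were -3.22 and -3.47 (mean -3.34, 10.2-fold lower). Lox, which crosslinks collagen, was at -2.25 and -2.68 (mean -2.47), whereas the lysyl oxidase related LOXRP was higher at 1.14 and 1.12 (mean 1.13, or 0.89 without background correction and 0.97 in the deposited ratios). Thrombospondin 1, a matricellular glycoprotein, was at -1.99 and -3.28 (mean -2.63). Osteonectin (-0.99 and -0.94), Agrin (-1.46 and -0.47), Fibronectin (-0.87 and -0.62) and Fibrillin-1 (-0.29 and -1.18) were negative on both arrays without a call. Syndecan-1 was at 0.82 and 0.96.

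The secreted regulators held the lowest value of the array. FISP-12, the connective tissue growth factor of the CCN family, had net signals of 240 against 6878 on array 1 and 363 against 18080 on array 2. Its ratios were -4.42 and -5.34 (mean -4.88, 29.5-fold lower), and the siEGFP array read -5.69. Its relative Cyr61 was at -0.37 and -2.02 (mean -1.20), a call that neither array 1 alone nor the ratios without background correction (-0.88) gave. Follistatin related protein (-2.19 and -3.31) and TSC36 (-1.68 and -2.45), names in use for the same secreted glycoprotein, were lower by means of -2.75 and -2.07. These 4 of 11 features, a pair of which may be the same gene, were called lower, against 10.3% of all features, and none higher (median -0.17). IGFPBP (mean -0.85), PDGF (0.77 and 0.73), TGF beta (0.19 and 0.42), VEGF (-0.02 and 0.20), FGF-2 (0.20 and 0.07) and IGF-2 (-0.45 and 0.10) were not called.

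Actin and contractile features went both ways, 3 of 9 higher and 2 lower (median -0.19), against 8.68% and 10.3% of all features. SM22, the smooth muscle protein transgelin, was at -1.91 and -3.69 (mean -2.80, 6.97-fold lower), and the tropomyosin TPM2, one of the brightest features in ROSE199 with net signals of 17701 and 35967, at -1.69 and -1.62 (mean -1.65). Cav-1, the coat protein of caveolae, was at 1.10 and 0.98 (mean 1.04, or 0.96 without background correction), next to the limit, and its relative Cav2 at -0.44 and 0.02. The calcium-binding S100 features were among the highest. P9ka42a, a name of S100A4, was at 3.87 and 2.74 (mean 3.31, 9.89-fold) and S-100 related at 3.79 and 3.27 (mean 3.53, 11.6-fold). Both also read alike on the other arrays, reading 2.26 and 2.63 with siEGFP, 1.09 and 1.08 with the empty vector, and -0.09 and -0.04 on HMGA2 array 1. The probe sequences were not used here, and whether the features measure separate transcripts was not tested.

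Most markers of the ovarian surface epithelium were lower. In ROSE199 all 6 were above blank on both arrays. Their net signals there ran from 514 to 5920 on array 1 and from 421 to 12135 on array 2. All but 1 of the 311 features passed the same cut in ROSE199 on array 1, and all but 35 on array 2. The 4 neuronal features passed it on both arrays too, so the count for these markers does not speak to the labelled origin. In depleted ROSEA25 4 of the 6 were called lower, against 10.3% of all features, with a median of -1.78. The summed net signal of the 6 was 3998 in ROSEA25 against 12560 in ROSE199 on array 1, and 4867 against 25625 on array 2. Fewer cells with a marker and less RNA per cell cannot be told apart in these bulk samples. Basonuclin, a zinc finger protein of epithelia and germ cells, was at -2.41 and -3.39 (mean -2.90, 7.47-fold lower). Megakaryocyte potenciating factor, the array's name for the mesothelin precursor, was at -2.09 and -2.31 (mean -2.20). P-cadherin was at -1.26 and -3.0 (mean -2.13) and E-cadherin at -0.96 and -1.88 (mean -1.42), the latter -0.97 without background correction and -0.80 in the deposited ratios. WT1 (-0.53 and -0.88) and DOC-2 (-0.19 and 0.17) were not called. The fibroblast marker Thy-1 was at -0.22 and 0.84, the fibroblast and muscle list being otherwise SM22 and Collagen alpha, both lower. On array 2 Thy-1 kept 2 spots, and its ROSE199 net signal of 48 was not above blank.

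**Figure D3:**
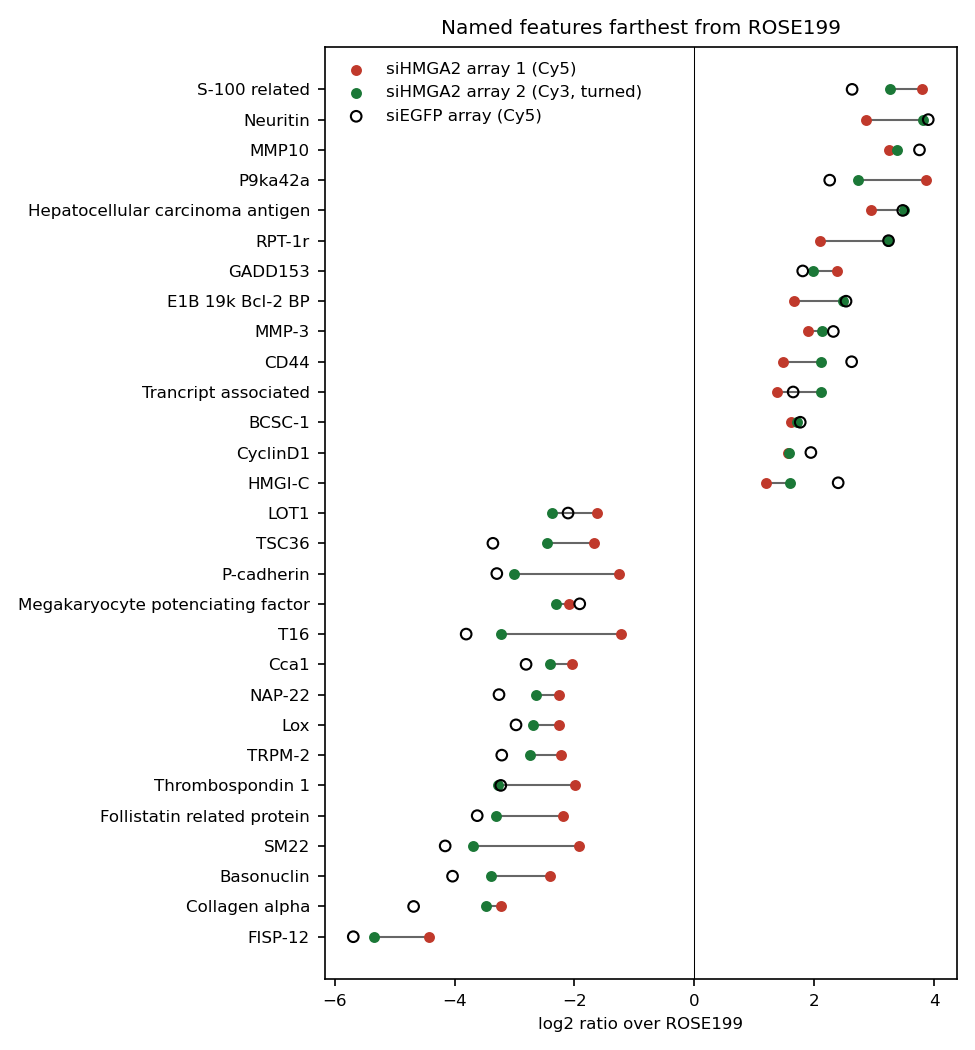
Log2 ratio over ROSE199 of the named features farthest from ROSE199 on either side, on siHMGA2 array 1 (red), siHMGA2 array 2 (green, turned) and the siEGFP array (open circle); grey lines join the siHMGA2 arrays. The siHMGA2 values of S-100 related and P9ka42a lie above the siEGFP value on both arrays, and those of Collagen alpha and HMGI-C lie nearer to 0 than it.

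Growth suppressors and death regulators were called in 6 of 8 cases, against 19% of all features, 4 lower and 2 higher (median -0.94). TRPM-2, a name of clusterin, was at -2.23 and -2.74 (mean -2.48), LOT1, a zinc finger protein named for its loss on transformation, at -1.63 and -2.38 (mean -2.0) and the pro-apoptotic Par4 at -2.23 and -1.49 (mean -1.86). P53 binding protein was at -0.32 and -1.88, but array 2 kept 1 spot of it and its ROSEA25 signal there was not above blank. Its deposited mean was -0.09. GADD153, a transcription factor of the stress response, was higher at 2.37 and 1.99 (mean 2.18, 4.53-fold), as was E1B 19k Bcl-2 BP at 1.67 and 2.48 (mean 2.07). H-rev107, a growth suppressor lost in RAS-transformed cells, was at -0.41 and -1.14 and not called, against -1.98 on the siEGFP array. MEN1 was at 0.13 and 0.23.

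Of 5 cell cycle features CyclinD1 alone was called. Ki-67, a proliferation marker, was at 0.75 and 0.53, and the inhibitors P27 kip (0.07 and -0.56), P16 (ink4a) (-0.15 and -0.28) and P15 ink4b (-0.05 and -0.22) had means between -0.24 and -0.13. Among lipid mediators, Cyclooxygenase 1, which makes prostaglandin precursors, was higher at 1.10 and 1.37 (mean 1.24, or 0.80 without background correction), with ROSE199 above blank on array 1 alone. Cox2 was at -0.61 and -0.73 (mean 0.15 in the deposited ratios), and the phospholipase PS-PLA1 at 0.02 and 0.22. Of 6 cyclic AMP features, Prkar2b, a regulatory subunit of protein kinase A, was called at 0.97 and 1.60 (mean 1.29, or 0.83 without background correction and 0.96 in the deposited ratios), and the other means lay between 0.04 and 0.31. ROSE199 was above blank for Prkar2b on array 1 alone.

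Genes best known from neurons were called in 3 of 4 cases, against 19% of all features. Neuritin, a membrane-anchored protein that promotes neurite growth, had net signals of 2901 against 482 on array 1 and 11410 against 768 on array 2. Its ratios were 2.87 and 3.82 (mean 3.35, 10.2-fold). NAP-22, a neuronal membrane protein, was lower at -2.26 and -2.64 (mean -2.45), as was the sorting receptor Sortilin at -0.38 and -2.26 (mean -1.32, or -0.92 without background correction), which array 1 alone would not have called. Peripherin was at -0.35 and -1.26 with no call. The 4 features lay on both sides of 0.

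Of the remaining features in the top and bottom 15, RPT-1r (2.11 and 3.23), Hepatocellular carcinoma antigen (2.95 and 3.50), Trancript associated (1.38 and 2.11) and BCSC-1 (1.61 and 1.72) were higher. Cca1 (-2.04 and -2.40) and T16 (-1.22 and -3.22) were lower. Of the 5 housekeeping features HPRT, an enzyme of purine salvage, was called lower at -1.04 and -1.39 (mean -1.21). Beta actin (0.26 and -0.11), Alpha tubulin (-0.12 and 0.21), the ribosomal S9 (-0.23 and 0.19) and GAPDH (0.49 and 0.35) were not.

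**Figure D4:**
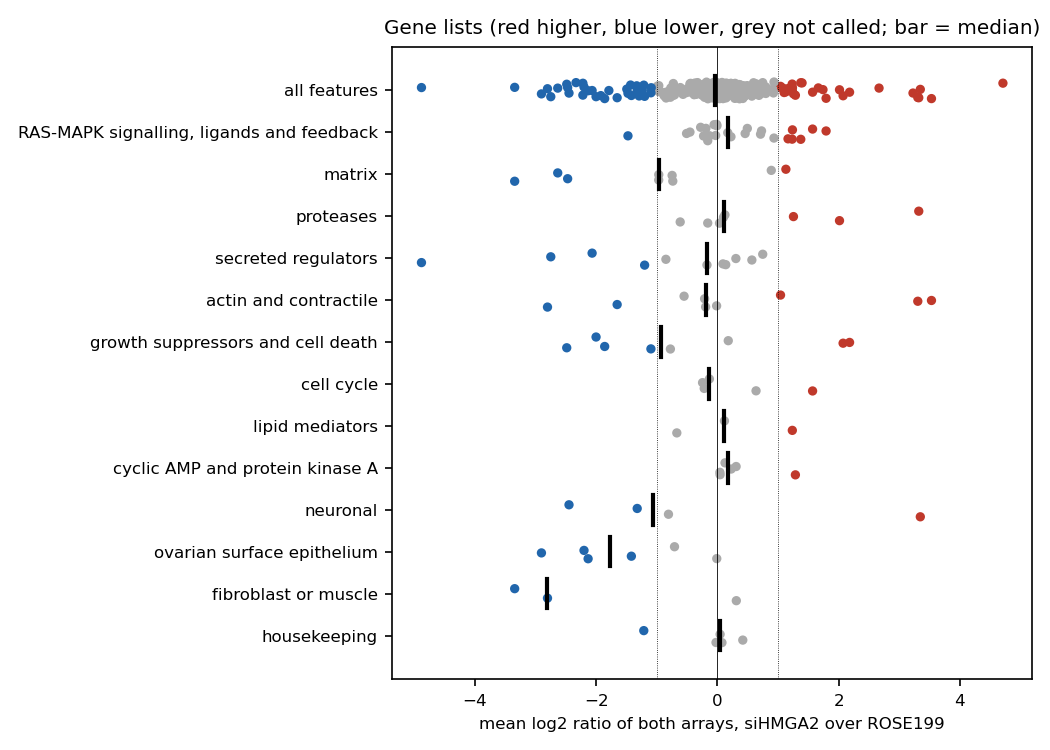
Mean log2 ratio of both arrays (x axis, siHMGA2 over ROSE199) of each feature in 13 gene lists and of all 311 features, 1 point per feature, red called higher, blue called lower, grey not called, with a black bar at the median and dotted lines at -1 and 1. The ovarian surface epithelium list has its median at -1.78 and the matrix list at -0.97, against -0.03 for all features.

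The siEGFP array, ROSEA25 with a control siRNA, shares ROSE199 RNA as its reference with these arrays, so no overlap between them is given and values are set side by side without a test. In the same dye orientation, siHMGA2 array 1 was past 1 in 26 features on the higher side (8.36%) and 28 on the lower side (9%). The siEGFP array was past 1 in 33 (10.6%) and 48 (15.4%). Array 2, in the opposite orientation, was past 1 in 26 (8.36%) and 38 (12.2%). The SD of the ratios over all features was 0.93 on siHMGA2 array 1, 1.14 on array 2 and 1.34 on the siEGFP array.

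Among features called higher, both siHMGA2 arrays read above the siEGFP array for P9ka42a (2.26 with siEGFP), S-100 related (2.63) and GADD153 (1.81). Both read below it for MMP10 (3.76), MMP-3 (2.32), CD44 (2.63), CyclinD1 (1.95), TGF alpha (2.53) and Cpg21 (2.84). The same held for Neuritin (3.90), RPT-1r (3.24), E1B 19k Bcl-2 BP (2.53), HMGI-C (2.40) and BCSC-1 (1.77). For Hepatocellular carcinoma antigen (3.48) and Trancript associated (1.65) the siEGFP value lay between the siHMGA2 arrays. Among features called lower, both read nearer to 0 than the siEGFP array for Collagen alpha (-4.68), Basonuclin (-4.03), SM22 (-4.16), NAP-22 (-3.26), TSC36 (-3.36) and Par4 (-3.51). So they did for FISP-12 (-5.69), Follistatin related protein (-3.62), TRPM-2 (-3.21), Lox (-2.97), Cca1 (-2.81), T16 (-3.81) and P-cadherin (-3.29). For Thrombospondin 1 (-3.23) and LOT1 (-2.11) the siEGFP value lay between the siHMGA2 arrays. For TPM2 (-1.11 with siEGFP) and Megakaryocyte potenciating factor (-1.91) both were farther from 0. For the P9ka42a feature the difference in the Cy5 orientation was 1.61, and for TPM2 it was -0.58. Over all features the siEGFP ratios also had the larger SD, 1.34 against 0.93 and 1.14. Whether any of these differences is particular to the named features was not tested.

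The dye orientations gave different values for some features. Of 311 features, 21 had a gap over 1 between the arrays and 2 a gap over 2, and 94 had opposite signs, of which 2 were at least 0.5 in size on both. In 9 of the 10 widest gaps, all but Ha-ras, the feature was called lower and array 2, with ROSE199 in Cy5, gave the more negative value. SM22 read -1.91 and -3.69, P-cadherin -1.26 and -3.0, Frat3 -0.41 and -2.25 and ETF -1.09 and -2.49. On the HMGA2 arrays the same features differed less between dyes, SM22 at -1.60 and -1.42, P-cadherin at 0.07 and 0.06, Frat3 at -0.19 and -0.37 and ETF at -0.46 and -0.37. The part of dye and of dim spots in these gaps was not tested.

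**Figure D5:**
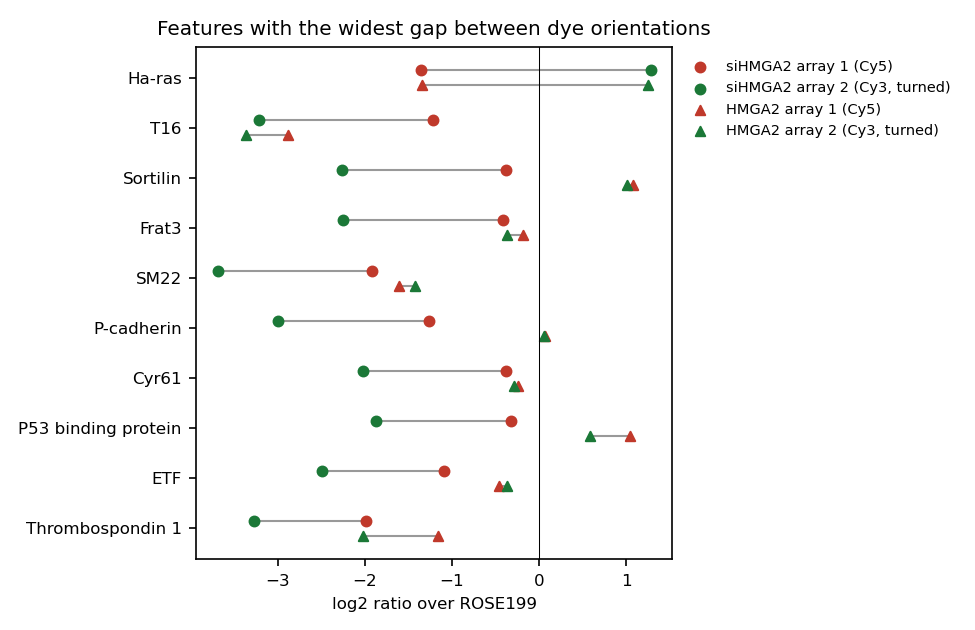
Log2 ratio over ROSE199 (x axis) of the 10 named features with the widest gap between dye orientations, for the siHMGA2 arrays (circles) and the HMGA2 arrays (triangles), sample in Cy5 red and in Cy3 (turned) green. Ha-ras reads negative in Cy5 and positive in Cy3 in both pairs, while Sortilin and P-cadherin have wide gaps in the siHMGA2 pair only.

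The limit of 1 divided features of nearly the same size. Just inside it on the higher side were Cav-1 (1.04) and PKC-zeta IP (1.06), and just outside Balb aldose reductase related (0.95), MAP kinase kinase 1 (0.93) and Mkp3 (0.93). On the lower side PRP (-1.09) and P53 binding protein (-1.10) were inside, and Coxsackie and adenovirus receptor homolog (-0.99), MUK2 (-0.97), Agrin (-0.97) and Osteonectin (-0.97) outside. SFB1 posphatase was not above blank in either channel on either array, and no fold is given for it.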

How the data were processed

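Per the file headers, the authors deposited one quantification file per array, which gives every spot's mean intensity and the median of its local background in each dye. The authors also deposited a table of log2 ratios. Set against the spot files, it ran as sample over ROSE199 (correlations 0.895 and 0.924 on the siHMGA2 arrays). Its column medians are -0.10 and 0.20, and its centring and background handling are unknown. Per the labels' protocols, 20 µg of RNA was labelled with dendrimer reagents.

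Poor spots (25 and 64 of 1760 per siHMGA2 array) and 37 blank spots were left out. Background was corrected by normexp with an offset of 50. Loess (span 0.3, 4 iterations) centred each array, giving no weight to blank or beta actin spots (R 4.3.3, limma 3.58.1). Spots were averaged by name, array 2 was turned and both arrays were averaged. A channel was above blank when its net signal passed the blank spots' mean plus 3 SD. The steps were tested on simulated data. No spot was saturated. The number of arrays limits the precision. The text names HMGI-C and the RAS genes, the 15 highest and 15 lowest called named features, list members and the 10 widest gaps, and others by their place next to the limit. One of these features is not reported here. Members and lists were chosen with earlier results of these data known.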

Additional observations from a re-analysis of the deposited data

Results flagged for a closer look

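For TGF beta both siHMGA2 arrays lay above ROSE199 (0.19 and 0.42, mean 0.31) and the siEGFP array just below it (-0.02). TGF beta was not called. The same kind of reversal was seen in 14 of the 311 features. FAH, picked after its values were seen, was at 0.82 and 0.77 (mean 0.80) against -0.90 with siEGFP. NF-1 transcription factor, picked likewise, was at 0.54 and 0.32 (mean 0.43) against -0.27. SFB1 posphatase, not above blank on any of these 3 arrays, was at -0.39 and -0.31 (mean -0.35) against 0.75. None of these differences was tested.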

How the results depend on the processing

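The counts of called features stayed within 1.5 times the reported 27 higher and 32 lower under all alternatives but one: without background correction 16 were higher and 25 lower. Elsewhere there were 19 to 28 higher and 25 to 38 lower. Leaving out either array gave 26 higher, with 38 lower without replicate 1 and 28 without replicate 2. Of the 59 called features, 36 (13 higher, 23 lower) kept their call under all 11 alternatives that keep every feature and the same rule. That number was 41 without background correction alone, 46 with the deposited ratios and 49 without replicate 2. Among called features Cathepsin D alone changed sign, with the deposited ratios (-0.22), a table whose median of all features lay 0.11 above the reported one. In these ratios PKC-zeta IP was at 0.33 and CEBPG at 0.15. The cause was not tested. Each array already pairs the ROSEA25 sample with ROSE199, and no further pairing was used. The arrays were counted as labellings of 1 RNA sample on each side, which the labels do not settle. The numbers 1 and 2 were given here in accession order. Of the 311 features, 275 were above blank in both channels on both arrays, and 24 of them were higher and 31 lower.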

Other observations

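The ID genes, inhibitors of helix-loop-helix transcription factors, and the CEBP factors were looked at after their values were seen. ID2 was called higher at 0.93 and 1.24 (mean 1.09, or 0.92 without background correction and 0.97 in the deposited ratios). ID1 was at 0.66 and 0.94, ID3 at 0.13 and 0.36 and ID4 at 0.52 and -0.28. CEBPG was called higher at 1.14 and 1.06 (mean 1.10, or 0.86 without background correction) and CEBPB was at 0.14 and -0.03. The muscle factors MyoD (0.13 and 0.04), Myogenin (0.29 and 0.24) and MRF4 (-0.22 and 0.35) were near ROSE199. Of the small GTPases, RhoA (0.11 and -0.13), Rhob (-0.05 and -0.14) and Rhoc (-0.16 and -0.17) were near 0 and Rnd3-Rho8 was at -0.79 and -0.96.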
